A study of Mus musculus with 8 samples.

Results

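Open chromatin of mouse granulosa cells was compared before and after the ovulatory signal as 2 deposited lists of FAIRE peaks. All peaks of both lists were taken, with the position and the score that the authors gave them. These were 44222 peaks, 21431 before and 22791 after the signal, out of 59521 peaks in the FAIRE and LRH-1 lists of the series. The mice were C57BL/6 animals with intact LRH-1 (LRH-1 +/+), aged 22 to 25 days. All received 5 IU of equine chorionic gonadotropin (eCG), so both groups carry the stimulation of follicle growth. The group before the signal was taken at 0 h, and the other 4 h after 5 IU of human chorionic gonadotropin (hCG), given 44 h after eCG. Granulosa cells were released by puncture of the ovaries. Each label states 2 replicates but each time has 1 list, and the number of animals behind it is not given. The spread between replicates therefore cannot be measured and no difference below has a test over samples. Intervals given are exact (Clopper-Pearson) 95% intervals and cover counting error only. The tissue label was not checked against marker genes, since peak lists hold no expression values. Positions are in mouse build mm9. No sequence or gene annotation of that build was used here, so the sites are given by position.

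Granulosa cells surround the oocyte and, with the luteinising hormone surge that hCG stands in for, stop dividing and begin to turn into luteal cells while the follicle prepares to rupture. This change is driven by receptor signalling through cyclic AMP and kinases, which alters transcription within hours. FAIRE (formaldehyde-assisted isolation of regulatory elements) recovers DNA that is poorly crosslinked to nucleosomes, as at active promoters and enhancers. A FAIRE peak thus marks open chromatin. Its score here is the authors' value per peak, on an unstated scale. Folds, rises and falls of FAIRE given below are those of this score. They are not known to be fold changes in openness. LRH-1 (NR5A2), whose binding was mapped in the same series, is a nuclear receptor needed for ovulation.

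The 2 lists were alike in the size of their peaks and in the middle of their score range, and differed at the upper end. The middle 50% of widths ran from 801 to 1017 bp before hCG and from 770 to 1003 bp after it. Median scores were 70.5 and 71.4. Peaks scoring at least 400 numbered 408 (1.90%) before hCG and 249 (1.09%) after it. The peaks covered 20.1 Mb before and 20.9 Mb after hCG. Wider peaks had higher scores in each list (Spearman's rho 0.44 before and 0.46 after, across peaks of 1 list, which are not independent). When the peaks of a list were divided by width into 4 groups of about equal number, the widest group before hCG started at 1018 bp. In it 68.4% of peaks (67.1 to 69.6) had a counterpart after hCG. In the narrowest group, at 801 bp or less, 43.5% (42.1 to 44.8) did. After hCG the same shares were 59.6% (58.3 to 60.9) and 43.3% (42.0 to 44.6). The widest group also had the higher median score, at 118 against 56.1 before hCG and 119 against 54.2 after it.

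Overlapping peaks of both lists were joined into 32652 sites. Of these, 11486 (35.2%) were listed at both times, 9910 (30.4%) before hCG only and 11256 (34.5%) after hCG only. A site missing from a list may have scored below the lowest listed score, so it is not shown to be closed. There were 1.14 after-only sites for each before-only site. Nearly all shared sites, 11409 (99.3%), paired 1 peak of each list. At 42 sites 1 peak before hCG faced several after it, at 29 sites the reverse held, and at 6 sites there were several of both. In the pairs the smaller peak lay wholly inside the other in 51.5%, and the midpoints were a median of 58.5 bp apart. Shared sites were therefore placed far more closely than the width of a peak.

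Single-time peaks were seldom near misses of the overlap rule. Of the before-only peaks, 4.13% (3.74 to 4.54) had an after-hCG peak within 1 kb, and of the after-only peaks 4.35% (3.98 to 4.75) had a before-hCG peak that near. The median distance to a peak of the other time was 23.6 kb for before-only and 21.7 kb for after-only peaks. Shared peaks lay at a similar distance, 18.9 kb before and 20.9 kb after hCG, from the next peak of the other time that did not overlap them.

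High scores were more frequent among after-only than among before-only peaks. The highest score itself was similar, 458 for before-only and 467 for after-only peaks. Below a score of 50 the single-time peaks were about equal in number, 3419 before-only and 3284 after-only. From 80 to 120 there were 1458 and 1944, from 120 to 200 there were 535 and 1191, and from 200 upwards 64 and 332. At 300 or more, 4 were before-only and 53 after-only. Seen as a share of all peaks in that score range, 3.20% of peaks from 200 upwards before hCG were before-only, and 17.3% of those after hCG were after-only. Below a score of 50 the same shares were 71.9% and 65.6%. The 332 strong after-only peaks had a median width of 1076 bp, lay on 19 chromosomes, and were a median of 21.5 kb from any peak before hCG. The 64 strong before-only peaks had a median width of 1088 bp, lay on 18 chromosomes, and were 26.7 kb from any peak after hCG. Peak names leave out 575 numbers before and 621 after hCG, and the reason is not given. An unlisted site could score at most 40 if the same minimum held at both times and no peak was removed for another reason. On that reading 1498 before-only sites (15.1%) were at least 2-fold lower and 4300 after-only sites (38.2%) at least 2-fold higher relative to the median change of shared sites described next. With raw scores these were 2057 (20.8%) and 3467 (30.8%). Read depth of the 2 FAIRE libraries is not in the sources used here, and its part in these numbers was not tested.

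**Figure D1:**
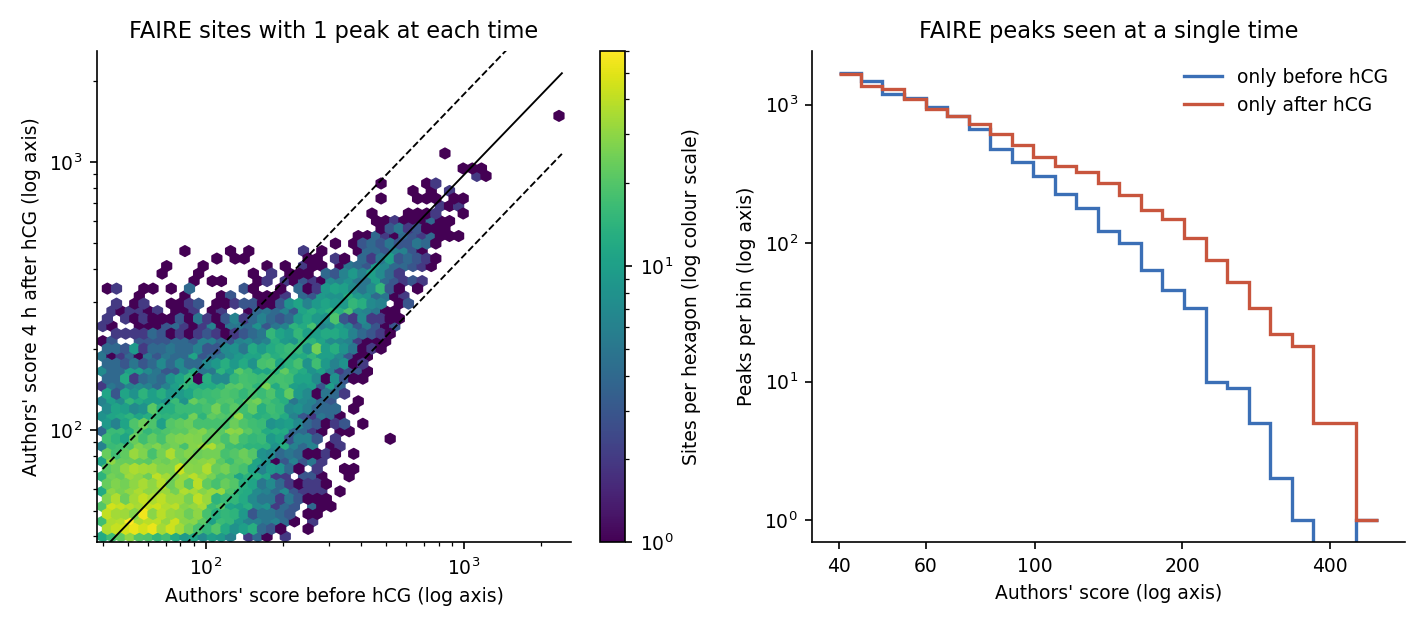
Left, authors' scores of the 11409 sites with 1 peak at each time, before hCG (x) against 4 h after it (y), both on log axes with colour for the number of sites; the solid line is the median ratio and the dashed lines lie 2-fold to either side. Right, number of single-time peaks by score, on log axes. The 2 curves run together near the lowest score of 40 and part above 80, where 3467 peaks were after-only and 2057 before-only.

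At the paired sites, scores after hCG were a median of 0.89 times those before it, a shift of -0.16 on the log2 scale. Whether both lists share 1 score scale is not stated. Changes are therefore given relative to this median (centred), and a change counts from 2-fold. By that measure 1108 of 11409 pairs were at least 2-fold higher after hCG (9.71%, 9.17 to 10.3) and 765 at least 2-fold lower (6.71%, 6.25 to 7.18). These are the shares over all paired sites. The middle 50% of centred log2 changes ran from -0.43 to 0.46. The split between higher and lower rested on the scaling. Of pairs past 2-fold, 59.2% were higher with centring and 54.5% after quantile normalization (1013 higher, 847 lower). With raw scores 41.7% were higher (812 higher, 1136 lower). At 4-fold the higher side held more pairs by all 3 scalings: 134 against 31 centred, 120 against 36 with quantile normalization, and 82 against 60 raw.

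The scores of the 2 times were related across pairs (Spearman's rho 0.57, Pearson's r 0.67 on the log2 scale, n = 11409 pairs). These points share 2 lists and the score minimum of 40. Changes past 2-fold were most frequent at sites of middling score. Pairs were ordered by the mean of their log scores and divided into 10 equal groups. In the group from 77.4 to 88.4, 17.5% were at least 2-fold higher and 12.6% at least 2-fold lower. In the highest group, above 232, these shares were 1.40% and 1.23%. In the lowest group, below 52.9, the score minimum leaves no room for such a change and none was seen. It also limits changes in the next group, up to 60.7, where 5.35% were higher and 0.088% lower. After centring, a fall must be larger in raw score than a rise, so the minimum limits falls more. Its part in the totals of rises and falls was not tested. The median centred change was 0.11 in the lowest group and -0.09 in the highest.

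Peak width moved with the score. Paired peaks were a little narrower after hCG, with a median width ratio of 0.97 (middle 50% from 0.85 to 1.10), and 57.3% of them were narrower. Where the score was at least 2-fold higher after hCG, the median width was 905 bp before and 1005 bp after it, and 70.3% of peaks had widened. Where it was at least 2-fold lower, the widths were 1025 and 887 bp, and 25.2% had widened. The remaining pairs had 947 and 911 bp, and 40.6% had widened. Over all pairs the changes in width and score were weakly related (Spearman's rho 0.25, n = 11409).

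The pairs with the most extreme changes were named among those with a peak in the best-scoring 10% of its list, which were 2596 pairs. The site on chromosome 16 at 38395944 to 38396811 scored 41.7 before hCG and 343 after it, 9.21-fold higher after centring. That on chromosome 8 at 37247198 to 37247791 went from 44.8 to 341 (8.54-fold), and that on chromosome 4 at 137686966 to 137687947 from 44.7 to 328 (8.22-fold). By score they ranked at percentiles 4.68, 11.9 and 11.7 of the list before hCG and at 98.1, 98.1 and 97.8 of that after it. The site on chromosome 1 at 79185765 to 79186736 went from 44.4 to 301 (7.57-fold), while its peak grew from 972 to 2079 bp. The site on chromosome 17 at 35727428 to 35728320 went from 42.8 to 283 (7.41-fold). LRH-1 was listed at 3 of these 5 sites after hCG, those on chromosomes 16, 1 and 4 (4.14-, 6.02- and 7.22-fold enriched in the authors' deposited lists), and before hCG at that on chromosome 4 (4.18-fold). For comparison, LRH-1 was listed after hCG at 20.7% of all 11409 pairs and at 32.5% of those at least 2-fold higher. Neither set is limited to the 2596 pairs from which these sites were named.

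The falls were smaller in fold. The site on chromosome 2 at 112360336 to 112361474 scored 263 before and 45.7 after hCG, 5.13-fold lower after centring, and narrowed from 1139 to 752 bp. On chromosome 1, the site at 139025008 to 139026733 went from 295 to 52.2 (5.06-fold) and narrowed from 1726 to 871 bp. Another on chromosome 1, at 158360087 to 158361473, went from 334 to 59.5 (5.01-fold), and the one at 59860772 to 59862012 from 273 to 49.3 (4.95-fold). A site on chromosome 18 went from 249 to 43.9 (5.06-fold). LRH-1 was listed at 3 of these 5 before hCG, at the second and the third of the chromosome 1 sites (5.21- and 7.13-fold) and at the chromosome 18 site (5.04-fold), and at none after it. For comparison, LRH-1 was listed before hCG at 14.7% of all 11409 pairs and at 33.7% of those at least 2-fold lower. These sets too are not limited to the 2596 pairs with a best-scoring peak.

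LRH-1 binding took no part in choosing the sites. LRH-1 listed at 1 time only moved with the FAIRE score, while LRH-1 listed after hCG was similarly frequent where FAIRE fell and where it rose. LRH-1 was mapped in ovarian tissue, so its peaks can come from other cells of the ovary. The deposited LRH-1 lists hold 5886 peaks before and 9413 after hCG, and over all pairs LRH-1 was listed after hCG only at 8.47% and before hCG only at 2.52%. At pairs at least 2-fold higher after hCG, LRH-1 was listed after hCG only at 200 of 1108 (18.1%, 15.8 to 20.4) and before hCG only at 13 (1.17%, 0.63 to 2.00). At pairs at least 2-fold lower the same shares were 43 of 765 (5.62%, 4.10 to 7.497) and 62 (8.10%, 6.27 to 10.3). At the remaining pairs they were 723 of 9536 (7.58%, 7.06 to 8.13) and 212 (2.22%, 1.94 to 2.54). LRH-1 at both times was most frequent where FAIRE fell, at 25.6% (22.6 to 28.9), against 14.4% (12.4 to 16.6) where it rose and 10.9% (10.2 to 11.5) in the remainder. Counting every LRH-1 peak after hCG, the shares were 31.2% where FAIRE fell, 32.5% where it rose and 18.4% in the remainder. Counting every LRH-1 peak before hCG, they were 33.7%, 15.6% and 13.1%. The pairs that fell had a median FAIRE score of 164 before hCG, and those that rose 55.3. After hCG these medians were 54.5 and 142.

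**Figure D2:**
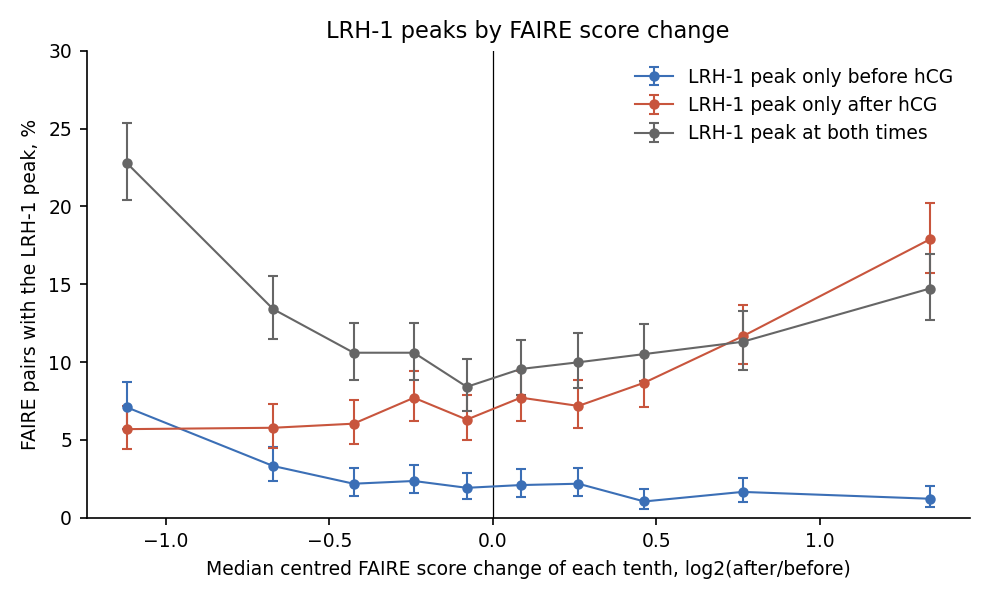
Share of paired FAIRE sites with an LRH-1 peak (y, %) in 10 equal groups by centred FAIRE score change (x, log2 of after over before, at each group's median), with exact 95% intervals for counting error. In the group with the greatest rise LRH-1 was seen after hCG only at 17.9% and before hCG only at 1.23%, and in the group with the greatest fall at 5.70% and 7.10%.

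The strength of LRH-1 binding that was present at both times changed in the same direction. At 1370 FAIRE pairs with 1 LRH-1 peak at each time, the authors' fold enrichment of LRH-1 after hCG was a median of 0.87 times that before where FAIRE was at least 2-fold lower (middle 50% from 0.74 to 1.05, n = 187 sites). It was 1.00 times in the middle class (0.85 to 1.17, n = 1026) and 1.12 times where FAIRE was at least 2-fold higher (0.92 to 1.34, n = 157). LRH-1 enrichment was higher after hCG at 32.6%, 49.4% and 66.2% of these sites in turn. Across the 1370 sites the relation was weak (Pearson's r 0.28, Spearman's rho 0.25), and the points share 4 lists.

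Among single-time FAIRE peaks, LRH-1 was more frequent at higher FAIRE scores. Of after-only peaks below a score of 50, 6.18% (5.38 to 7.06) held an LRH-1 peak seen after hCG only, and 1.80% held one at both times. From 200 upwards the shares were 27.4% (22.7 to 32.5) and 4.82% (2.78 to 7.71), and 67.5% (62.1 to 72.5) held none. Over all FAIRE peaks after hCG, 9.504% held LRH-1 seen after hCG only and 7.41% held it at both times. Among all these peaks, LRH-1 seen after hCG only was at 5.33% of the narrowest group and 14.7% of the widest. The widest group also had the higher median score. Whether the rise with score was particular to single-time peaks was not tested. At before-only peaks, LRH-1 listed at both times was more frequent than LRH-1 listed before hCG only. This was not particular to them, since over all FAIRE peaks before hCG the shares were 10.4% and 4.17%. Of before-only peaks from a score of 120 to 200, 24.7% (21.1 to 28.6) held LRH-1 at both times. A further 15.1% (12.2 to 18.5) held it before hCG only and 3.74% after hCG only. From 200 upwards, 32 of 64 held it at both times and 10 before hCG only, and 18 held none. The other 4 held it after hCG only.

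Peaks lay closer together after hCG. The median gap between neighbours was 44.7 kb before and 38.3 kb after hCG, and gaps of at most 10 kb made up 15.2% of 21411 gaps before and 18.4% of 22771 after it. A longer list leaves shorter gaps, so the 10000 best-scoring peaks of each list were also compared. Their median gaps were 90.3 and 82.6 kb. By chromosome, the median gap of all peaks was shorter after hCG on 17 of 19 autosomes and on X. On chromosomes 2 and 8 it was 45.8 and 39.2 kb before and 46.0 and 39.4 kb after hCG.

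Clusters were taken as 3 or more peaks with gaps of at most 10 kb. There were 470 before hCG and 711 after it, and they held 7.28% (6.94 to 7.64) and 10.3% (9.95 to 10.7) of the peaks. With 10000 peaks from each list the shares were 1.83% and 2.80%. Clusters of 5 or more numbered 29 and 43. Median scores of peaks in groups of 5 or more were close to those of isolated peaks, 72.6 and 70.3 in the list before hCG, 72.4 and 70.8 in that after it. Clustered peaks were more often single-time in the list after hCG. In the list after hCG, 48.3% of isolated peaks and 55.6% of peaks in groups of 3 to 4 were after-only. In the list before hCG, 46.6% and 44.7% were before-only, and the intervals of these shares overlap. LRH-1 of the same time was listed at 13.8% of isolated peaks and 19.5% of peaks in groups of 3 to 4 before hCG, and at 16.0% and 20.05% after it.

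**Figure D3:**
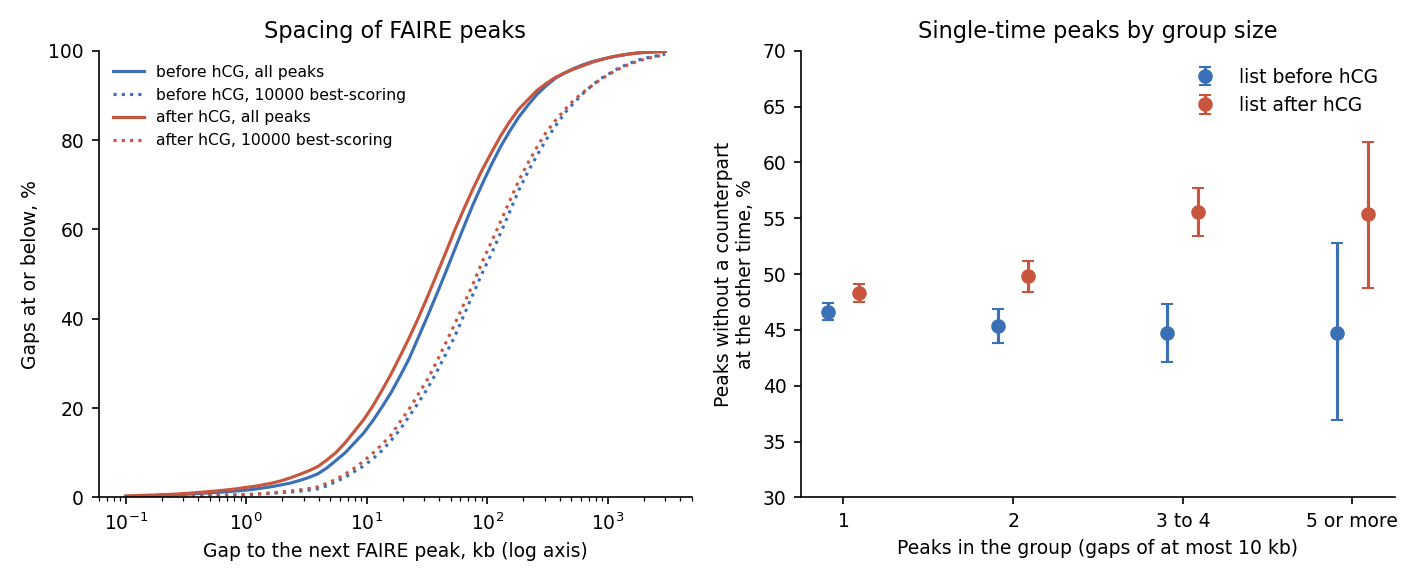
Left, share of gaps between neighbouring FAIRE peaks (y, %) at or below a length (x, kb, log axis), for all peaks (solid) and the 10000 best-scoring (dotted) of each list; the curves after hCG lie to the left between about 1 and 100 kb. Right, share of peaks without a counterpart at the other time, by the number of peaks in their group, with exact 95% intervals; it is 48.3% for isolated and 55.6% for groups of 3 to 4 peaks after hCG, and 46.6% and 44.7% before it.

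When sites of both lists were chained in the same way, 1531 clusters of 3 or more sites formed. Of these, 93 consisted of after-only sites alone, 25 of before-only sites alone and 54 of shared sites alone, and 739 held both single-time kinds. At least 3 after-only sites and no before-only site were found in 136 clusters, and the reverse in 38. The nearest site to an after-only site was itself after-only in 38.1% of cases (37.2 to 39.0), where such sites are 34.5% of all. The nearest site to a before-only site was before-only in 32.8% (31.9 to 33.7), where such sites are 30.4% of all. For before-only and shared sites this share was lower at short distance. For before-only sites it was 25.7% (22.1 to 29.6) when the neighbour lay within 1 kb and 34.3% (32.9 to 35.8) at 10 to 50 kb. For shared sites it was 31.5% (27.8 to 35.4) and 40.7% (39.4 to 42.0). For after-only sites the share was 35.8% (32.5 to 39.3) and 38.6% (37.2 to 40.02). The mix of kinds also differed with distance. Sites whose neighbour lay within 1 kb were 556 before-only, 784 after-only and 587 shared. At 10 to 50 kb they were 4301, 4711 and 5420 in turn. After-only sites were thus the most numerous kind at the short distance, and shared sites at the longer one. The part of this mix in the shares was not tested.

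Changes in score at neighbouring paired sites were close to unrelated. For neighbouring pairs up to 5 kb apart, Pearson's r of their centred changes was -0.08 (n = 433), at 5 to 10 kb 0.04 (n = 553), at 10 to 50 kb -0.03 (n = 3389) and beyond 200 kb 0.02 (n = 2836). Both members changed at least 2-fold in 9 neighbour pairs within 5 kb and in 22 at 5 to 10 kb, and 4 and 10 of these changed in the same direction. An after-only site lay within 10 kb of 21.1% (18.8 to 23.6) of pairs at least 2-fold higher, 18.3% (15.6 to 21.2) of those at least 2-fold lower and 16.1% (15.4 to 16.9) of the remainder. For before-only sites the shares were 15.3% (13.2 to 17.5), 14.4% (12.0 to 17.1) and 13.3% (12.6 to 14.0). The intervals of the first 2 classes overlap for both kinds.

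Some clusters show how differently neighbouring sites behaved. On chromosome 2, 8 sites lay between 163740898 and 163781048, of which 6 were after-only. The tallest of these, at 163771700 to 163772669, scored 394 and began less than 1 kb from the end of a shared peak whose score was 84.3 before and 65.7 after hCG. The other 5 after-only peaks scored between 41.9 and 84.2. LRH-1 summits in the cluster numbered 1 before and 4 after hCG, where the whole LRH-1 lists hold 5886 and 9413 peaks. On chromosome 7, between 86390984 and 86425321, a strong shared peak scored 491 before and 285 after hCG, and 6 after-only peaks with scores of 43.1 to 119 lay around it. A further cluster on chromosome 7, between 54254116 and 54287317, held 5 after-only and 3 shared sites and no LRH-1 peak at either time.

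In 2 of the 3 clusters named for their excess of before-only sites, where ties went to the higher summed score, the shared sites scored higher after hCG. On chromosome 6, between 121106115 and 121134182, 5 before-only peaks scored 40.5 to 103, while the shared site among them went from 62.4 to 162. On chromosome 4, between 131953720 and 131982761, 4 before-only peaks scored 41.5 to 144, and the shared sites went from 52.8 to 90.7 and from 71.6 to 191. On chromosome 13, between 23823999 and 23865103, 4 before-only sites lay beside 3 shared ones, of which 2 were pairs that went opposite ways, from 122 to 45.3 and from 102 to 156. This last cluster had 8 peaks before hCG, and the list before hCG had 1 with more, of 9 peaks on chromosome 3 between 96345148 and 96384823, where 6 peaks were shared. The next before hCG had 7 peaks, 6 of them shared, on chromosome 9 between 107435721 and 107471359. The 3 clusters named for their number of peaks after hCG, of 8, 8 and 7 peaks, are those on chromosomes 2 and 7 given above, with 2, 3 and 1 shared peaks.

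The widest peaks of the lists were mostly found again at nearly the same place. On chromosome 12 a peak of 6542 bp from 116850556 to 116857097 (score 152) faced 1 of 3619 bp (score 141) after hCG, and its neighbour at 116833584 to 116838000, of 4417 bp, faced 1 of 3257 bp. On chromosome 4 a peak of 4601 bp from 145036357 to 145040957 faced 1 of 4266 bp, with scores of 153 and 149. After hCG the widest peak was of 5133 bp, on chromosome 16 at 3251799 to 3256931, with a score of 43.4, and it faced 1 of 3958 bp with a score of 57.4. The exception was a peak of 4796 bp on chromosome 4 at 146764044 to 146768839, with a score of 50.7, that was after-only. Peaks of 2000 bp or more numbered 116 before and 119 after hCG.

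Over longer stretches, large excesses of after-only sites were more frequent than those of before-only sites. Of 2398 windows of 1 Mb that held a site, 1089 (45.4%) had more after-only than before-only sites, 966 (40.3%) had fewer and 343 had equal numbers. An excess of 10 or more was seen in 50 windows towards after-only and in 4 towards before-only sites, and an excess of 5 or more in 297 and 128. Since there were 1346 more after-only than before-only sites in all, a difference of this direction comes with the totals. The counts of the 2 kinds were related across windows (Pearson's r 0.55, Spearman's rho 0.59, n = 2398). The points share the 2 lists.

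**Figure D4:**
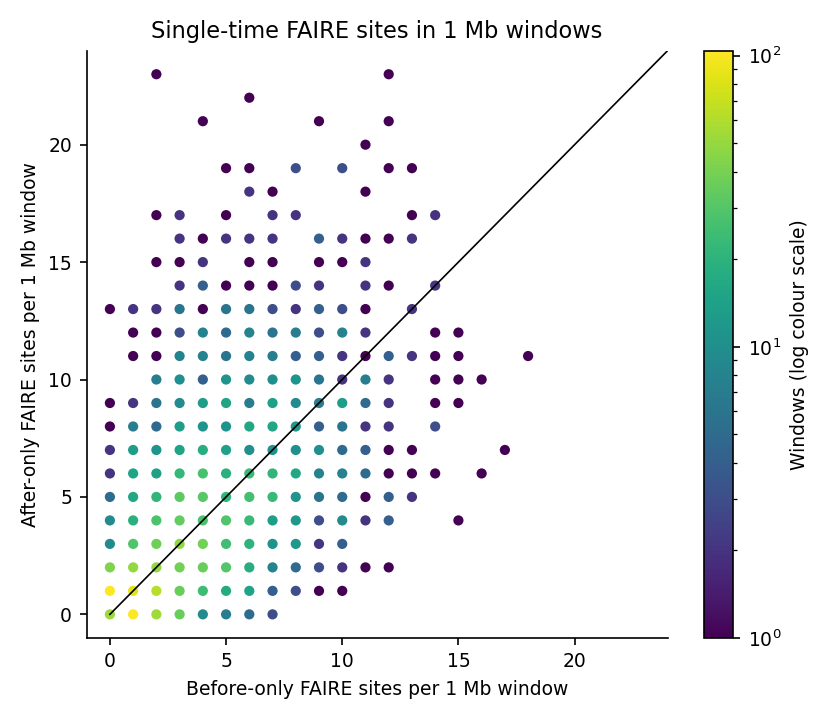
Number of before-only (x) and after-only (y) FAIRE sites in each of 2398 windows of 1 Mb, with colour for the number of windows at each point (log scale) and the line of equal numbers. Windows with an excess of 10 or more number 50 above the line and 4 below it.

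The window with the greatest excess of after-only sites was on chromosome 13 from 103000001 to 104000000, with 23 after-only, 2 before-only and 4 shared sites. Its after-only peaks scored 41.9 to 162 (median 63.9), and LRH-1 summits in it numbered 2 before and 7 after hCG. Next came chromosome 7 from 119000001 to 120000000, with 21 after-only, 4 before-only and 7 shared sites, an after-only score of up to 355, and 0 and 10 LRH-1 summits. Chromosome 14 from 70000001 to 71000000 held 22, 6 and 12 sites and 7 and 20 LRH-1 summits. The LRH-1 lists as a whole hold 5886 peaks before and 9413 after hCG, so more summits after it come with the totals. The paired sites in these windows had median centred changes of -0.04, 0.23 and 0.28. Of the 4 windows with an excess of 10 or more before-only sites, 3 were named, with ties resolved by the higher summed score, and the other was on chromosome 18. The named windows were on chromosome 1 from 186000001 to 187000000 (15 before-only, 4 after-only), chromosome 5 from 107000001 to 108000000 (17 and 7) and chromosome 13 from 114000001 to 115000000 (16 and 6). LRH-1 summits in them numbered 7, 9 and 7 before and 9, 7 and 13 after hCG. Paired sites there had median centred changes of 0.19, 0.18 and 0.09, slightly above the median of all pairs.

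All 19 autosomes held more peaks after hCG, with ratios of 1.02 (chromosome 2) to 1.12 (chromosome 13). Chromosome X alone held fewer, 411 before and 379 after hCG, a ratio of 0.92. Of single-time sites on X, 195 of 422 were after-only (46.2%, 41.4 to 51.1), against 53.3% over the autosomes together and 50.9% on the lowest autosome, chromosome 2. The interval of X includes equal numbers. X held 1.92% of peaks before and 1.66% after hCG, with gaps of a median 127 and 121 kb and low median scores of 63.7 and 62.4. At its 184 paired sites the median centred change was 0.05, within the range of the autosomes, -0.09 to 0.12, and 5.98% were at least 2-fold higher and 3.80% at least 2-fold lower. The share of pairs at least 2-fold higher ran from 6.78% on chromosome 18 to 12.7% on chromosome 14 among autosomes. The share at least 2-fold lower ran from 5.33% on chromosome 6 to 9.39% on chromosome 4, one of 2 autosomes (with 18) where falls outnumbered rises after centring.

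**Figure D5:**
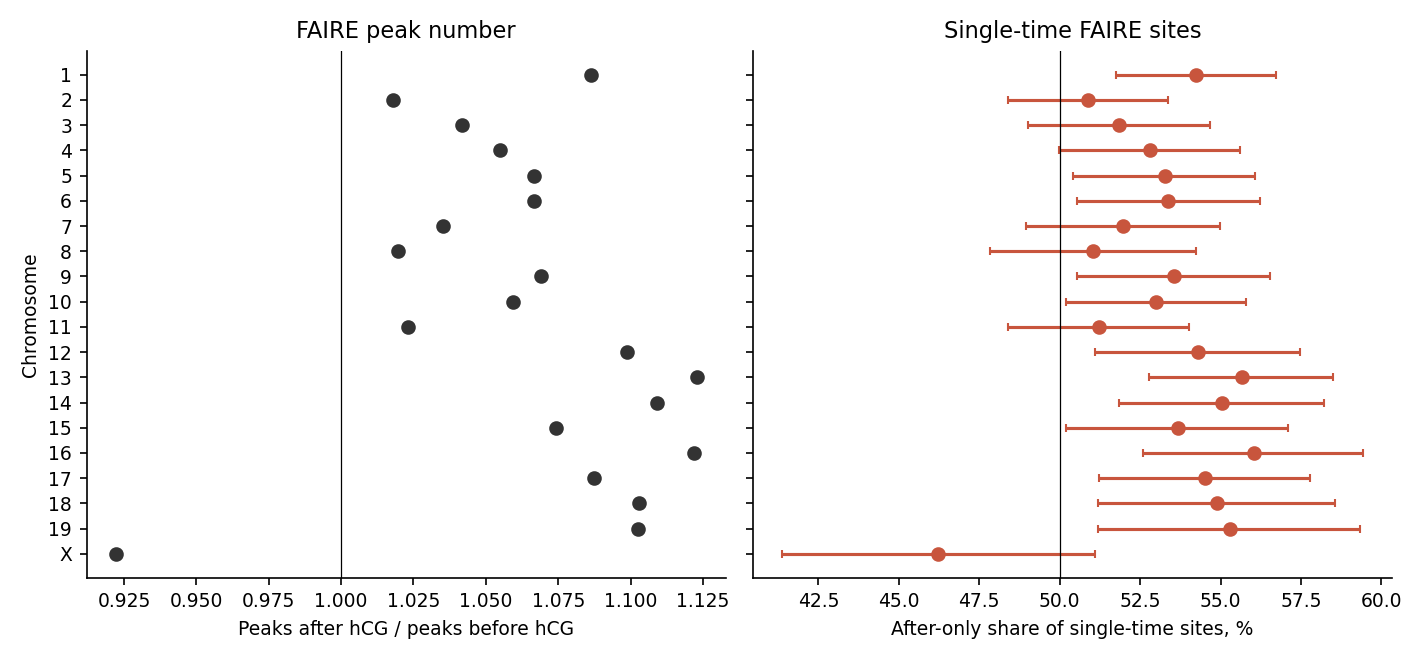
Left, ratio of the number of FAIRE peaks after hCG to that before it on each chromosome (x; the line marks equal numbers). Right, share of after-only sites among single-time sites (x, %) with exact 95% intervals for counting error and a line at 50%. The 19 autosomes lie above and X below both lines, with X at 0.92 and 46.2%.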

How the data were processed

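Open chromatin and LRH-1 binding were read from 1 deposited peak list per time. Per the submitters' processing notes, reads were aligned with BWA to mm9, and MACS2 2.1.0 and bedtools were used for LRH-1. FAIRE peaks carry names of the MACS family, but the version, settings and read depth are not given in the sources used here, nor whether replicates were pooled. The deposited FAIRE score is the authors' value per peak, at least 40, on an unstated scale. Of the deposited LRH-1 values, the fold enrichment ratio was used and the score, −log10 p-value and −log10 q-value were not. RNA tables were not used here. Peak names leave out 575 numbers before and 621 after hCG, of which 474 and 543 fall within chromosomes.

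A shared base (1 bp) counted as overlap, and chained peaks form a site. Score change is log2 of the ratio in sites with 1 peak each, minus its median. Analyses, tested on simulated lists, used scipy 1.17.1, pandas 2.3.3 and numpy 2.4.6 (Python 3.11.15). Sites were named by rule: the 5 highest and 5 lowest changes with a peak in the best-scoring 10% of its list, the 3 widest peaks and the 3 largest clusters of each list, and the 3 clusters and 3 windows with the greatest excess of each single-time kind, with ties going to the higher summed score. Members, lists and rules were chosen with earlier results of these data known. Alternatives were other overlap rules, score minimums, equal peak numbers, scalings and gap limits.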

Additional observations from a re-analysis of the deposited data

How the results depend on the processing

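No paired analysis was possible because each time has 1 list, and no replicate could be left out for the same reason. With peaks up to 1 kb apart counted as shared, 55.7% of peaks before and 52.8% after hCG were shared. With a score of at least 60 the shares were 52.3% and 49.0%. With 10000 peaks each, 50.5% before hCG were shared and after-only and before-only sites stood at a ratio of 1.00, as equal numbers require. Pairs at least 2-fold higher and lower made up 7.12% and 9.96% with raw scores, 8.88% and 7.42% with quantile normalization, and 14.1% and 11.3% where a score reached 100. The raw ratio thus turns the balance between rises and falls. The width ratio was 0.963 in pairs whose score changed by at most 1.2-fold. Within 5 kb, 16.3% of before-only and 16.6% of after-only peaks had a peak of the other time. Clusters held 1.62% of peaks before and 2.44% after hCG with gaps of at most 5 kb, 21.5% and 27.6% with 20 kb, and 1.83% and 2.80% with 10000 peaks each, so the list after hCG was the more clustered in each of these. At a score of at least 60, 37.99% of sites had a nearest site of the same kind, against 36.5% of all. The other 15 alternative values stayed within the counting interval of the value reported, among them the LRH-1 shares with raw scores, an alternative added after seeing the data. A score minimum of 40 hides changes at weak sites, and without replicates or read depth the lists, not the conditions, are compared.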
